A study of Mus musculus with 16 samples.

Results

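The genes described here encode the proteins of the cytosolic ribosome. They are the gene identifiers in the deposited tables whose GENCODE symbol has the form Rps or Rpl with a number and at most 1 suffix letter, or is Rpsa, Rplp0, Rplp1 or Rplp2, and whose biotype is protein-coding. This gave 80 of the 49585 identifiers, 31 of the small subunit and 49 of the large subunit. Another 3 symbols of the same form, Rps4l, Rpl32l and Rpl6l, are not annotated as protein-coding and were left out. A ribosome joins a small subunit, which decodes the messenger RNA, to a large subunit, which forms the peptide bond and holds the tunnel through which the new protein leaves. Messenger RNAs of ribosomal proteins begin with a run of pyrimidines, the 5′ terminal oligopyrimidine (5′ TOP) tract, through which the mTORC1 kinase and the RNA-binding protein LARP1 set their translation. In the mouse the embryo's own genome becomes broadly active at the 2-cell stage, and the embryo still holds ribosomes and messenger RNA laid down in the oocyte.

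All libraries came from mouse embryos at the 2-cell stage, with a DBA father and a mother that was an F1 hybrid of C57BL/6J and CBA/H, grown in KSOM medium. There were 16 Smart-seq2 libraries of polyadenylated RNA: 4 from embryos that were not injected, 6 from embryos that received dsLacz, a double-stranded RNA against LacZ, at the zygote stage (LacZ control), and 6 from embryos that received dsSuv39h2 at that stage (knockdown). LacZ is a bacterial gene, and Suv39h2 encodes a histone methyltransferase of heterochromatin. The design text gives a pool of 5 embryos per library and the extraction protocol a single embryo. The treatment protocol names Suv39h1 messenger RNA, which the labels of what was injected do not give for any group. Nothing in the labels says whether libraries of a group came from separate matings, so p-values measure the spread between these libraries, which may be technical.

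The files hold the authors' own comparisons of group pairs, with 1 mean normalized count per gene over all libraries and no value of a single library. The spread between libraries therefore appears here only as the standard error of each fold change, and whether groups overlap is not known. Fold changes are log2 values shrunken by the authors, each given with its standard error, and a gene is called when its DESeq2 adjusted p in the authors' deposited table is under 0.05. The targeted transcript Suv39h2 fell by 1.95 ± 0.28 from LacZ control to knockdown in the authors' deposited table (adjusted p = 4.72e-08). All 8 genes of a list chosen for the 2-cell embryo had counts, with means from 257 (Zscan4f) to 26588 (Dppa3). Over non-injected embryos, 5 of them were called higher in knockdown and 2 in LacZ control, and 3 of 6 maternal oocyte transcripts were called higher in knockdown. Their part in the results on ribosomal proteins was not tested. Of 8 cumulus and granulosa cell markers, 6 had mean counts of at most 1.42, and Cyp19a1 and Tnfaip6 had 16.1 and 36.5. The 5 sperm transcripts had mean counts of at most 7.78.

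RefSeq promoter sequences, on GRCm38.p6, were matched for 60 of the 80 genes. In the 60 bases from 40 before to 20 after the start site, the longest unbroken run of C and T had a median of 9 bases in the ribosomal protein genes and of 6 in all 27025 genes with an entry. A run of 9 or more was present in 33 of the 60 (55.0%) and in 19.05% of all genes. The 6 windows below are those of 2 genes called in the comparison of knockdown with LacZ control, of 2 genes whose fold changes stayed close to 0, of the gene with the highest level among the paralogs, and of Rpl27a, which has a run of 20 bases. They were chosen after the values were seen, and capitals mark the longest pyrimidine run (in Rps27l the first of 2 runs of equal length).

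Rps9 (small subunit, called lower; chr7:3704001-3704060, plus strand): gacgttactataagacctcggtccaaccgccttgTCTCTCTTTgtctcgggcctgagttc
Rps25 (small subunit, called lower; chr9:44407674-44407733, plus strand): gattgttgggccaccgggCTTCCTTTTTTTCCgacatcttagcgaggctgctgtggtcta
Rps2 (small subunit, not called; chr17:24720023-24720082, plus strand): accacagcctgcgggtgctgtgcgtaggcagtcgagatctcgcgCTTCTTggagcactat
Rpl13a (large subunit, not called; chr7:45128726-45128785, minus strand): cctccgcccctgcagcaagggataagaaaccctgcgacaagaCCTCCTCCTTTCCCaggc
Rps27l (small subunit paralog, not called, first of 2 entries; chr9:66946046-66946105, plus strand): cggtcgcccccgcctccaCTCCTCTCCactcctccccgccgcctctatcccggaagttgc
Rpl27a (large subunit, not called; chr7:109519155-109519214, plus strand): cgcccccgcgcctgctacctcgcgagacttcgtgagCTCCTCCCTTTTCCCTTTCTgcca

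The run was 9 bases in Rps9, 14 in both Rps25 and Rpl13a, and 6 in Rps2, the median of all genes. Over the 300-base entries, from 250 before to 50 after the start site, the word CCGGAAG, the core bound by the ETS factor GABP, was found on either strand in 25 of the 60 genes (41.7%) and in 9.93% of all genes. The word CTTTCC, sought on the gene's own strand only, was also found in 25 of 60 (41.7%) and in 16.01% of all genes. The ends of these 2 words can share bases. The TATA word TATAAA was found on either strand in 6 of 60 and in 15.7% of all genes. CCGGAAG was found in 11 of the 28 genes with an entry that were called between knockdown and non-injected embryos, and in 14 of the other 32. CTTTCC was found in 9 of those 28 and in 16 of the other 32, and TATAAA in 0 and in 6. No test was made of these differences.

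Between knockdown and LacZ control, both injected, 3 small subunit genes were called lower and no ribosomal protein gene was called higher. Of all genes with an adjusted p, 0.533% were called lower and 0.366% higher (0.899% in either direction), and 0.958% were called lower among genes with a mean count of 100 or more, a level that 79 of the 80 reach. Rps9, a small subunit protein that bears on decoding accuracy, fell by 0.68 ± 0.17 in the authors' deposited table (1.61-fold lower, adjusted p = 0.0257). Rps25, a protein of the small subunit head that some viral messenger RNAs need for initiation, fell by 0.65 ± 0.18 (1.57-fold lower, adjusted p = 0.0458 in the authors' deposited table).

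The called genes were not set far apart from the rest of the family. Just outside the threshold lay Rpl23 at -0.72 ± 0.21 (adjusted p = 0.0511), Rpl35 at -0.71 ± 0.20 (adjusted p = 0.0533) and Rpl37 at -0.82 ± 0.23 (adjusted p = 0.0595) in the authors' deposited table. Of the 80 fold changes, 79 were below 0, where 44.0% of all genes were, and 58.3% of those with a mean count of 100 or more. The family's median was -0.47, with an interquartile range from -0.59 to -0.30 and a highest value of 0.04 (Rpl17), beside a median of 0.016 over all genes with a p-value, of -0.08 over those with a mean count of 100 or more and of -0.17 over those with 1000 or more. An unadjusted p under 0.05 with a lower level was given for 45 of the 80 genes and for 4.11% of all genes, and one with a higher level for 0 and 4.02%. Among the 7722 genes with a mean count of 100 or more, it was given for 1067 with a lower and 435 with a higher level. Counts are normalized between libraries, so these values are relative to the other transcripts, and the amount of RNA per embryo is not known. Rps25 lost its call when adjustment ran over every gene with a p-value (adjusted p = 0.0741), and Rps9 kept it (adjusted p = 0.0356).

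**Figure D1:**
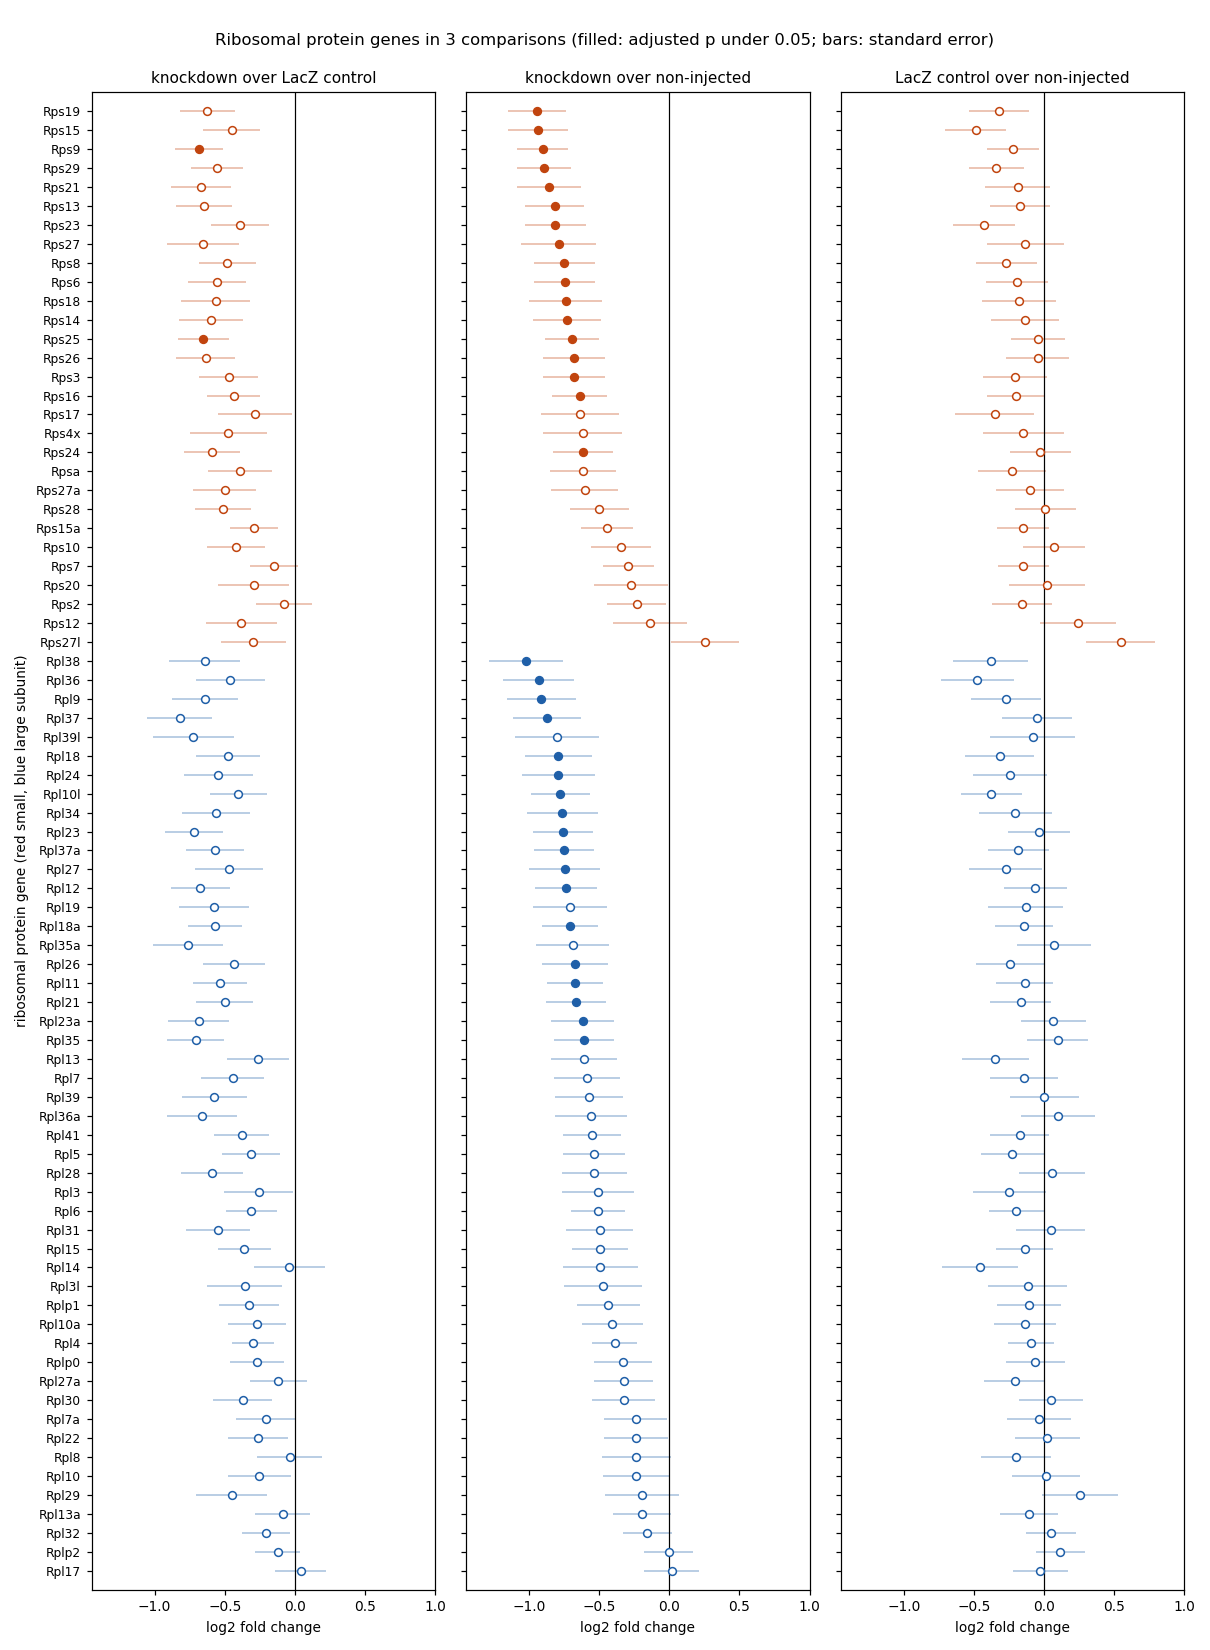
Log2 fold change of 78 of the 80 genes (x axis) in the 3 comparisons, with bars of 1 standard error, small subunit genes in red and large subunit genes in blue, each ordered by knockdown over non-injected, and filled points for genes called. Nearly all points of the first 2 panels lie left of 0, with 2 filled in the first and 35 in the second, and none are filled in the third.

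Between knockdown and non-injected embryos, 37 of the 80 genes were called lower and 0 higher, where 7.76% of all genes were called lower and 7.41% higher (15.2% in either direction), and 13.5% were called lower among genes with a mean count of 100 or more. The comparison crosses injection as well as the injected RNA. Its median over the family was -0.62, with an interquartile range from -0.75 to -0.43 and a highest value of 0.25 (Rps27l), beside 0.027 over all genes with a p-value and -0.085 over those with a mean count of 100 or more. Of the 80 fold changes 78 were below 0, where 42.0% of all genes were, and 55.3% of those with a mean count of 100 or more. Among the largest called falls were those of Rpl38, Rps19, Rps15, Rpl36 and Rpl9. Rpl38, whose loss in the mouse disturbs the axial skeleton, fell by 1.03 ± 0.26 (2.04-fold lower, adjusted p = 0.00368 in the authors' deposited table). Rps19, the gene most often mutated in Diamond-Blackfan anaemia, fell by 0.95 ± 0.21 (adjusted p = 0.000532 in the authors' deposited table), and Rps15, close to the decoding site in the head, by 0.94 ± 0.21 (adjusted p = 0.000827). Of the large subunit proteins Rpl36 and Rpl9, the levels fell by 0.93 ± 0.26 and 0.91 ± 0.25 (adjusted p = 0.00618 and 0.0065 in the authors' deposited table).

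Rps9 and Rps25, called against LacZ control, had fold changes of the same direction here: -0.90 ± 0.18 for Rps9 (adjusted p = 0.000156) and -0.69 ± 0.19 for Rps25 (adjusted p = 0.00702) in the authors' deposited table. Both comparisons use the same 6 knockdown libraries, so these values are not separate evidence. An unadjusted p under 0.05 with a lower level was given for 58 of the 80 genes and for 6.83% of all genes, and one with a higher level for 0 and 7.98%. Among the 7722 genes with a mean count of 100 or more, it was given for 1786 with a lower and 1215 with a higher level.

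Between LacZ control and non-injected embryos no ribosomal protein gene was called by DESeq2 in the authors' deposited table, where 0.263% of all genes were called lower and 0.529% higher (0.792% in either direction), and 0.155% were called lower among genes with a mean count of 100 or more. Before adjustment Rps15 had a p under 0.05 with a lower level (-0.49 ± 0.22, DESeq2 adjusted p = 0.51), and Rps27l one with a higher level (0.55 ± 0.25, DESeq2 adjusted p = 0.536). These are 1 of 80 in each direction, where all genes gave 2.62% lower and 3.93% higher. The 7722 genes with a mean count of 100 or more gave 465 lower and 667 higher. The family's median was -0.14, with 62 genes below 0, beside 0.0008 and 48.3% below 0 over all genes with a p-value. The fold changes of the 3 comparisons are tied: knockdown over non-injected is the sum of the other 2 for each gene, to within 4.97e-10.

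**Figure D2:**
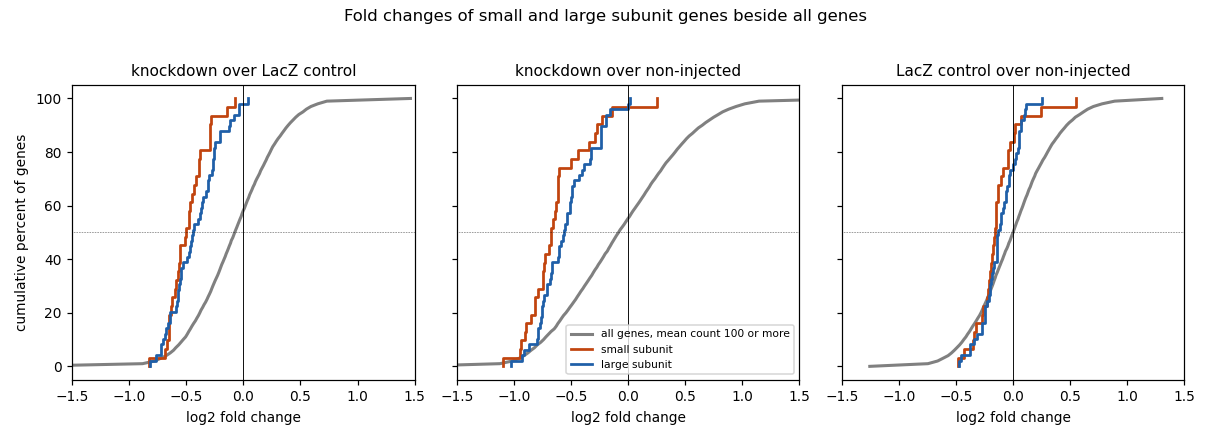
Cumulative percent of genes (y axis) at or below each log2 fold change (x axis) in the 3 comparisons, for small subunit genes (red), large subunit genes (blue) and all 7722 genes with a mean count of 100 or more (grey). Both subunits lie left of all genes in the first 2 panels, with medians of -0.50 and -0.44 in the first. In the third they lie closer but still to the left, with medians of -0.16 and -0.13 beside 0.0003 for all genes.

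The small subunit had the lower median fold change in both comparisons with knockdown. Against LacZ control the 31 small subunit genes had a median of -0.50, all 31 below 0 and 3 called, and the 49 large subunit genes a median of -0.44, 48 below 0 and 0 called. Against non-injected embryos the medians were -0.68 and -0.56, with 19 of 31 (61.3%) and 18 of 49 (36.7%) called lower. The difference between the subunits was not tested, since genes are not replicates and single libraries are not in the tables.

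Within the small subunit, the list of 14 head proteins had a median of -0.49 against LacZ control, with 1 called (Rps25), and of -0.65 against non-injected embryos, with 8 called lower. The list of 16 body and platform proteins had medians of -0.57 and -0.74, with 2 called, Rps9 among them, and 11 called lower. Rps29, a zinc-binding head protein, fell by 0.89 ± 0.19 against non-injected embryos (adjusted p = 0.000345 in the authors' deposited table) and was at -0.56 ± 0.18 against LacZ control (adjusted p = 0.0913). Rps6, the ribosomal substrate of the S6 kinases, fell by 0.75 ± 0.22 against non-injected embryos (adjusted p = 0.0117 in the authors' deposited table). Head and body were not uniform. Rps2, at the entry of the messenger RNA channel, was at -0.08 ± 0.20 (adjusted p = 0.91) and -0.23 ± 0.21 (adjusted p = 0.498), and the head protein Rps12 at -0.38 ± 0.25 (adjusted p = 0.52) and -0.14 ± 0.27 (adjusted p = 0.795) in the authors' deposited table.

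Within the large subunit, no gene was called against LacZ control. The 9 proteins of the peptide tunnel and its exit had medians of -0.55 and -0.57. Against non-injected embryos 3 of them (33.3%) were called lower, beside 46.3% of the 80 genes and 7.76% of all genes. These were Rpl23a (-0.62 ± 0.23, adjusted p = 0.0481) and Rpl35 (-0.61 ± 0.21, adjusted p = 0.038) at the exit and Rpl26 (-0.68 ± 0.24, adjusted p = 0.0305) beside it, in the authors' deposited table. In the same list Rpl17, a protein whose loop lines the tunnel, was at 0.04 ± 0.18 (adjusted p = 0.951) and 0.02 ± 0.19 (adjusted p = 0.982) in the authors' deposited table. Against non-injected embryos it was, with Rps27l, 1 of 2 genes above 0.

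The P stalk recruits the GTPases of translation and is built from Rplp0, Rplp1 and Rplp2 on a base that includes Rpl12. Its 4 genes had medians of -0.30 and -0.38. Rpl12 fell by 0.74 ± 0.22 against non-injected embryos (adjusted p = 0.0149 in the authors' deposited table). The stalk proteins themselves were not called: Rplp0 was at -0.33 ± 0.21 (adjusted p = 0.284), Rplp1 at -0.43 ± 0.23 (adjusted p = 0.193) and Rplp2 at -0.01 ± 0.17 (adjusted p = 0.987) in the authors' deposited table. Rpl5 and Rpl11 bind 5S ribosomal RNA and, when free, the p53 ligase Mdm2. Against non-injected embryos Rpl11 fell by 0.67 ± 0.20 (adjusted p = 0.0121 in the authors' deposited table), and Rpl5 was at -0.54 ± 0.22 (adjusted p = 0.0733).

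Of 20 ribosomal protein genes known from Diamond-Blackfan anaemia, an inherited failure of red cell production, 10 were called lower against non-injected embryos (median -0.63) and 0 against LacZ control (median -0.49, all 20 below 0). Against non-injected embryos Rps19 and Rps29 had the largest falls among them, and Rps7 (-0.29 ± 0.18, adjusted p = 0.294) and Rps20 (-0.27 ± 0.26, adjusted p = 0.577) the fold changes closest to 0 in the authors' deposited table. The list's counts were close to those of the whole family, of which 37 in 80 (46.3%) were called.

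Some ribosomal proteins have a second gene. Among the 80 genes these are Rps27l, a broadly expressed and p53-responsive relative of Rps27, and 3 that are known from few tissues: Rpl10l and Rpl39l, of the testis, and Rpl3l, of heart and skeletal muscle. All 4 had counts in these embryos, with mean counts of 3100 (Rps27l), 440 (Rpl10l), 433 (Rpl39l) and 93.2 (Rpl3l). Scaled by length, as mean count per kb of the principal transcript, the level of Rps27l was 3.42 times that of Rps27, and 4.94 times per kb of coding sequence. Rpl39l stood at 1.36 times Rpl39, Rpl10l at 0.398 times Rpl10 and Rpl3l at 0.205 times Rpl3 on the first scale. All 4 ratios were higher per kb of all annotated exons: 6.32 for Rps27l, 2.11 for Rpl39l, 1.02 for Rpl10l and 0.404 for Rpl3l. Each general gene shared more of its sequence, counted in short words, with transcripts of other genes than its paralog did. The shares were 98.7% for Rps27 and 29.3% for Rps27l, and 23.6% for Rpl39 and 3.08% for Rpl39l. They were 92.3% for Rpl10 and 22.3% for Rpl10l, and 87.4% for Rpl3 and 0% for Rpl3l. Reads of shared sequence can be lost or split between genes, and their part in the 4 ratios was not tested.

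The paralogs were not called against LacZ control. Rpl39l was at -0.72 ± 0.29 (adjusted p = 0.22) and Rpl39 at -0.57 ± 0.23 (adjusted p = 0.178) in the authors' deposited table. Against non-injected embryos Rpl10l fell by 0.78 ± 0.21 (adjusted p = 0.00541 in the authors' deposited table), while Rpl10 was at -0.24 ± 0.24 (adjusted p = 0.576). Rpl39l was at -0.80 ± 0.30 (adjusted p = 0.0716) and Rpl3l at -0.48 ± 0.28 (adjusted p = 0.285) there. Rps27l and its partner lay on opposite sides of 0 there. Rps27l was at 0.25 ± 0.24 against non-injected embryos (adjusted p = 0.49 in the authors' deposited table), whereas Rps27 fell by 0.79 ± 0.27 (adjusted p = 0.0358). Against LacZ control both were below 0, Rps27l at -0.30 ± 0.23 (adjusted p = 0.608) and Rps27 at -0.66 ± 0.26 (adjusted p = 0.193). The difference between a paralog and its partner was not tested.

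Of 6 paralogs not among the 80 genes, 1 was called. Rpl7l1, a factor of large subunit assembly related to Rpl7, fell by 0.62 ± 0.18 against non-injected embryos (adjusted p = 0.0114 in the authors' deposited table). Rpl22l1, Rpl36al, Rps27rt, Rpl37rt and Rps4l lay between -0.47 and -0.19 in that comparison, with adjusted p from 0.418 to 0.794.

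**Figure D3:**
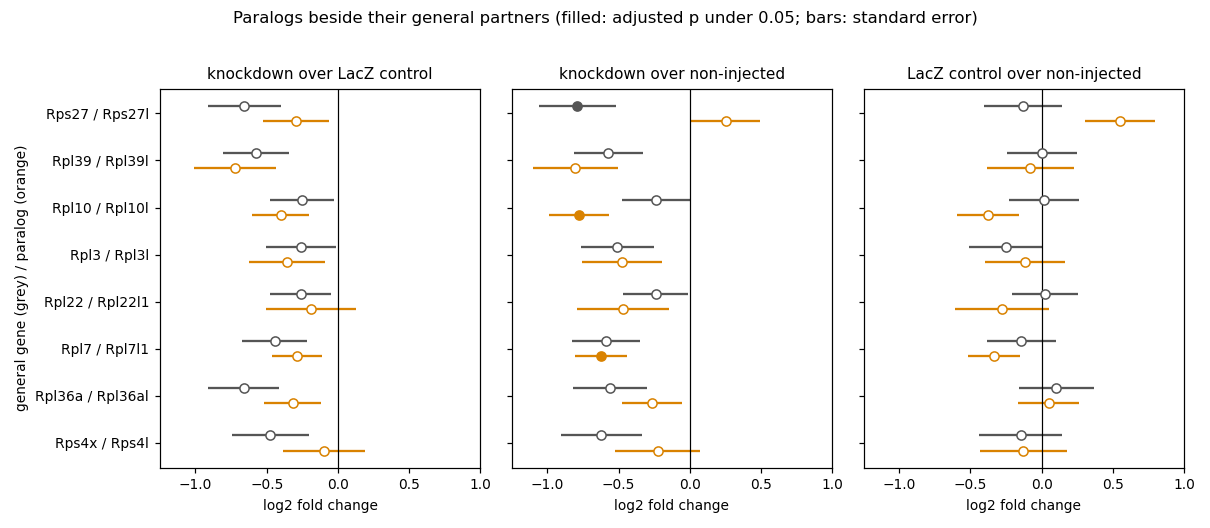
Log2 fold change (x axis) of general ribosomal protein genes (grey) and their paralogs (orange) in the 3 comparisons, with bars of 1 standard error and filled points for genes called. In the second panel Rps27l lies right of 0 at 0.25 and Rps27 left of it at -0.79, and Rpl10l is filled while Rpl10 is not.

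The family was abundant as a whole. Its summed mean normalized count was 66439.5, or 1.04% of the sum over all genes. Per kb of principal transcript the median level was 761 counts, beside 14.8 over 19016 protein-coding genes with a p-value, and 73 of the 80 genes lay above the 90th percentile of those genes (314 counts per kb). Levels ran from 67.8 counts per kb (Rpl3l) to 16126 (Rpl41), with a median of 1091 for the small and 677 for the large subunit.

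The 5 highest levels per kb were those of Rpl41 (16126), Rps27l (6212), Rplp0 (4111), Rplp2 (4027) and Rps26 (2604). Rpl41 encodes the smallest ribosomal protein, with a coding sequence of 75 bases. Rpl41, Rps27l and Rplp0 were also the 3 highest per kb of all annotated exons, where Rplp2 came 11th and Rps26 7th. No standard error of a level is given in the tables, so the order of neighbours was not tested. Fold change and level were set side by side: across the 80 genes Spearman's rho of mean count with the fold change against LacZ control was -0.05, and -0.21 over 7175 protein-coding genes with a mean count of 100 or more. Across genes this is a description, since genes share libraries.

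**Figure D4:**
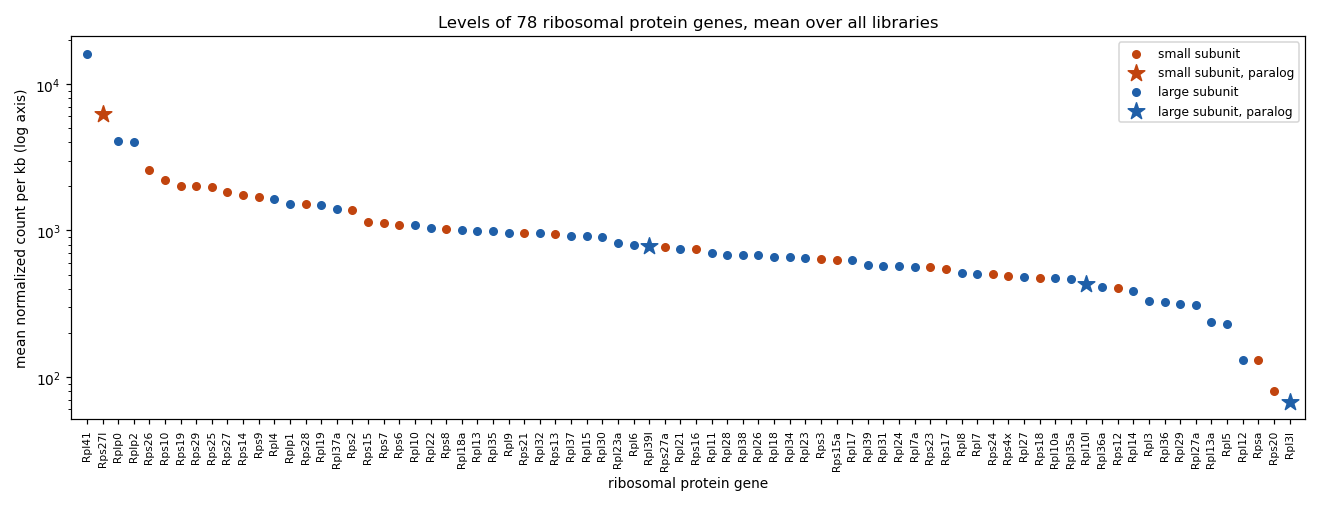
Mean normalized count per kb of principal transcript over all libraries (y axis, log scale) for 78 of the 80 genes in order of level (x axis), with stars for the 4 paralogs. Rpl41 stands highest at 16126, Rps27l second at 6212, and Rpl3l lowest at 67.8.

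Some ribosomal protein genes and their relatives have names that the symbol form leaves out. The list of these includes the assembly factor Rpl7l1 and Rpl37rt, which is annotated as a transcribed processed pseudogene. Of 9 such genes, Fau, which encodes a small subunit protein fused to a ubiquitin-like protein, fell by 0.79 ± 0.21 against LacZ control (adjusted p = 0.035 in the authors' deposited table). Against non-injected embryos 4 of the 9 (44.4%) were called lower, beside 46.3% of the 80 genes and 7.76% of all genes. Among the 4 were Rack1, a scaffold on the small subunit head (-0.88 ± 0.25, adjusted p = 0.00919), Fau (-0.78 ± 0.22, adjusted p = 0.00888) and Rpl7l1 in the authors' deposited table.

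Other messenger RNAs with a 5′ TOP tract lay on both sides of 0, most of them below it in both comparisons with knockdown. Against LacZ control 15 were below 0 and 4 above, with a median of -0.40. Against non-injected embryos 13 were below 0 and 6 above. Of 19 listed, 3 of which (Rack1 and Fau among them) are also in the list above, 2 were called lower against LacZ control, Fau and the poly(A)-binding protein Pabpc1 (-0.76 ± 0.20, adjusted p = 0.0364 in the authors' deposited table). Against non-injected embryos, where 46.3% of the 80 genes and 7.76% of all genes were called lower, the list had a median of -0.42. Of its genes 8 (42.1%) were called lower and 0 higher. The largest of these were Eif3e (-0.91 ± 0.31, adjusted p = 0.0363) and Eif3f (-0.90 ± 0.27, adjusted p = 0.0124), subunits of an initiation factor, Rack1, and Pabpc1 (-0.85 ± 0.22, adjusted p = 0.0028) in the authors' deposited table. The elongation factor genes Eef1a1 (0.25 ± 0.17, adjusted p = 0.337) and Eef1b2 (0.44 ± 0.21, adjusted p = 0.151), with Btf3 (0.44 ± 0.21, adjusted p = 0.129) and Tpt1 (0.25 ± 0.14, adjusted p = 0.24), were above 0 in the authors' deposited table.

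Of the 12 genes of mTORC1 signalling and LARP1, 0 were called against LacZ control, where the DESeq2 p was under 0.05 before adjustment for 0 lower and 1 higher. Against non-injected embryos Larp1 fell by 1.10 ± 0.29 (adjusted p = 0.00388 in the authors' deposited table) and Eif4ebp1, an inhibitor of cap-dependent initiation, rose by 0.92 ± 0.31 (adjusted p = 0.0281). Mtor itself was at 0.32 ± 0.22 (adjusted p = 0.378). Between LacZ control and non-injected embryos the list had a median of -0.08 and a lowest value of -0.92, with 0 called by DESeq2. There 2 lower and 0 higher had an unadjusted DESeq2 p under 0.05.

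Chaperones that hold single ribosomal proteins before assembly were called in 4 of 8 cases against non-injected embryos, all lower. Grwd1, the chaperone of Rpl3, fell by 1.24 ± 0.25 (adjusted p = 0.000152), Pdcd2, the chaperone of Rps2, by 0.89 ± 0.25 (adjusted p = 0.00619), its relative Pdcd2l by 0.81 ± 0.23 (adjusted p = 0.00618) and Ltv1, an assembly factor of the small subunit head, by 0.80 ± 0.22 (adjusted p = 0.00586) in the authors' deposited table. Their clients Rpl3 and Rps2 were not called. Against LacZ control 0 of the 8 were called, and 3 lower and 0 higher had an unadjusted DESeq2 p under 0.05. Between LacZ control and non-injected embryos the list had a median of -0.41, with 7 of 8 below 0, 0 called by DESeq2, and 3 lower and 1 higher before adjustment at a p under 0.05. Its medians in the comparisons with knockdown were -0.31 against LacZ control and -0.69 against non-injected embryos.

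Transcription factors known to act at ribosomal protein promoters went in both directions against non-injected embryos. Gabpa and Gabpb2, subunits of GABP, fell by 0.90 ± 0.21 and 0.90 ± 0.18 (adjusted p = 0.00172 and 0.000162 in the authors' deposited table), and Myc fell by 1.16 ± 0.36 (adjusted p = 0.0241). Max, the partner of Myc, rose by 1.18 ± 0.26 (adjusted p = 0.000741 in the authors' deposited table). Of these 8 genes 0 were called against LacZ control, and 3 with a lower and 1 with a higher level had a DESeq2 p under 0.05 before adjustment. The p53 arm that senses free ribosomal proteins (Trp53, Mdm2, Mdm4 and Cdkn1a) had 0 of 4 called by DESeq2 in either comparison with knockdown, and 0 of 4 at an unadjusted p under 0.05. Its 2 smallest p-values were those of Mdm4 (-0.40 ± 0.22, adjusted p = 0.391) against LacZ control and of Cdkn1a (0.28 ± 0.22, adjusted p = 0.398) against non-injected embryos in the authors' deposited table.

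**Figure D5:**
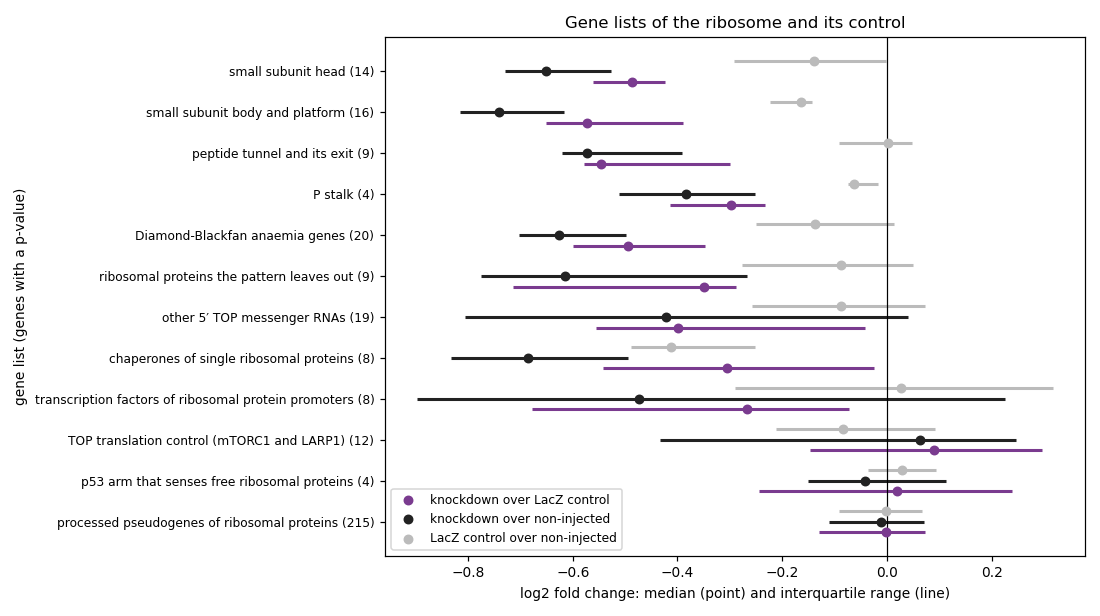
Median log2 fold change (points) and interquartile range (lines) of each gene list (y axis, with the number of genes that have a p-value) in the 3 comparisons. Lists of ribosomal proteins have medians between -0.30 and -0.57 against LacZ control. Those of processed pseudogenes (only symbols with the suffix -ps) and of the mTORC1 genes lie close to 0.

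Many of these genes share sequence with copies elsewhere, so reads can be lost or split between them. A median of 62.4% of a gene's 32-base words occurred in an annotated transcript of another gene, and 72 of the 80 shared over 25% and 57 over 50%. Rps27 shared 98.7% and its paralog Rps27l 29.3%. Among the 8 genes that shared at most 25%, 0 were called against LacZ control and 3 against non-injected embryos. Their medians stayed close to the family's, at -0.44 and -0.62. Of these, Rps3 shared 8.36% of its words and fell by 0.68 ± 0.22 against non-injected embryos (adjusted p = 0.0272 in the authors' deposited table).

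Pseudogenes of ribosomal proteins were taken by name, as Rps or Rpl symbols with the suffix -ps that are not annotated as protein-coding. Processed copies under other symbols, which many of the 80 genes have, and protein-coding copies were not counted. The 274 pseudogenes taken by name held few counts. Only 215 had a mean count above 0 and 2 one of 100 or more, and their summed mean count, 1026, was 1.54% of that of the 80 genes. Their median fold change was -0.001 against LacZ control, with 0 called by DESeq2 and 3 lower at an unadjusted p under 0.05, and -0.01 against non-injected embryos, with Rpsa-ps10 called lower (-1.02 ± 0.31, adjusted p = 0.0116 in the authors' deposited table). Shrinkage pulls fold changes at such low counts towards 0.

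Exons of 37 of the 80 genes overlap another gene, in most cases a small nucleolar RNA (GENCODE vM21, GRCm38). Rps25 (chromosome 9, 44407139 to 44410427) overlaps Ccdc84 and Trappc4 on the opposite strand, and Smart-seq2 does not record the strand. Rps9 (chromosome 7, 3703993 to 3706897, plus strand) overlaps no annotated exon of another gene. Without the 37 genes, 1 of 43 was called against LacZ control and 24 of 43 against non-injected embryos.

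Chromosome 7 carries 14 of the genes, of which 2 (14.3%) were called lower against LacZ control and 8 (57.1%) against non-injected embryos. In the whole family 3 of 80 (3.75%) and 37 of 80 (46.3%) were, and of all genes 0.533% and 7.76%. Of the 7 genes on chromosome 11, 0 and 5 (71.4%) were called lower. On chromosome 7, Rpl13a was at -0.09 ± 0.19 and -0.19 ± 0.20 in these comparisons (adjusted p = 0.891 and 0.572 in the authors' deposited table).

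Shorter genes of the family had somewhat lower fold changes. Split at the median transcript length of 705 bases, the 40 shorter and 40 longer genes had medians of -0.55 and -0.39 against LacZ control, and of -0.69 and -0.60 against non-injected embryos, with 21 and 16 called. Across the 80 genes Spearman's rho of coding length with the fold change was 0.41 against LacZ control and 0.22 against non-injected embryos, and that of transcript length was 0.25 and 0.17. Over the 7175 protein-coding genes with a mean count of 100 or more the values were 0.06 and -0.06 for coding length and 0.04 and -0.04 for transcript length. All protein-coding genes with a mean count of 100 or more and a transcript no longer than 705 bases, 218 in number, had medians of -0.29 and -0.09. These include the 40 shorter genes of the family, so they are not a separate background. The part of length in the results was not tested.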

How the data were processed

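Polyadenylated RNA was measured in 16 libraries, grouped by the label of what was injected. The submitters' processing notes name STAR 2.5.2b, SAMtools, HTSeq 0.9.1, DESeq2 1.18.1 and the build GRCm38.p5. RUVSeq and shrinkage are named only in the titles of the deposited tables. The number of RUVSeq factors, the annotation release and the strand setting were not given in the sources used here. In the authors' 3 gene tables are, per the file headers, a mean normalized count (a signal), a shrunken log2 fold change and its standard error, a Wald score, and p-values before and after adjustment. They hold 0 columns of single libraries, so depth, intervals and batches are unknown. The 3 repeat tables were not used.

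Identifiers were matched to GENCODE vM21 (49326 of them, 99.5%), ignoring versions. Levels are mean counts per kb of the shortest principal protein-coding transcript. Calls are the authors' own at an adjusted p under 0.05. Benjamini-Hochberg adjustment and other settings were recomputed with Python 3.11.15, pandas 2.3.3, numpy 2.4.6 and scipy 1.17.1, and tested on simulated data. Shared words are 32-base words found in annotated transcripts of another gene, since a genome was not used here.

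The genes and lists were chosen with earlier results of these data known. Named are all genes called against LacZ control, the 6 largest called rises and falls of the other comparisons, the 6 highest levels, all paralogs, and up to 4 called genes of each other list or else its 2 with the smallest p. Some genes that the rule names are not reported here and are left out of plots of single genes, but stay in all counts and medians. Other named genes were chosen after their values were seen. Alternatives were other adjustments, thresholds, members and a centring of the fold changes.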

Additional observations from a re-analysis of the deposited data

How the results depend on the processing

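Against LacZ control the 3 calls became 1 with adjustment over every gene with a p-value, 6 over genes with a mean count of 100 or more, 0 at an adjusted p under 0.01 and 15 under 0.1. They became 1 of 43 genes without those with overlapping exons, and 1 with fold changes centred on protein-coding genes. In alternatives chosen after seeing the data, they became 0 of 8 genes without those sharing over 25% of their words and 1 of 23 without those sharing over 50%. Against non-injected embryos the 37 calls of 80 genes became 17 of 80 at an adjusted p under 0.01. They became 24 of 43 without overlapping exons, and 3 of 8 and 14 of 23 without genes sharing over 25% and over 50% of their words. The share called was higher than in the whole family for 24 of 43 and 14 of 23, and lower for 3 of 8. Sets of fewer genes can hold fewer calls, and otherwise the cause of these changes was not tested. The other 51 recomputed counts and medians stayed within 1.5 times (counts) or within the median standard error of their genes' fold changes (medians), and 0 reversed. Of single genes, Rps25 lost its call on centring (adjusted p = 0.067) and over protein-coding genes (adjusted p = 0.0511), and Rps9 kept it under each adjustment and the centring (0.0212 to 0.0438). Centring moved fold changes by 0.076 and 0.092 and split the calls over all genes into 47 lower and 149 higher against LacZ control (deposited 83 and 57) and 847 and 1585 against non-injected embryos (deposited 1160 and 1108). The family's medians were then -0.40 and -0.53, with 1 and 30 genes called lower and 0 higher; the same Wald p without centring called 6 and 40 lower. No paired analysis was possible because the tables hold no values of single libraries, and leaving out replicates was not run for the same reason. Depth per library is unknown.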
